A study of Mus musculus with 6 samples.

Results

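Type I interferon-induced genes were followed in cultured mouse lung fibroblasts that lacked Mmp19, a matrix metalloproteinase, and in wild-type fibroblasts. The set was a list of 39 genes, divided by role into 4 sensors of foreign RNA or DNA, 24 effectors and 11 regulators, out of 20018 genes that the arrays' probes could be named to. Of the 39 genes 36 had a named probe, and 32 could be tested. All 6 cultures, 3 Mmp19 knockout and 3 wild-type, came from mice that had received 0.08 units of bleomycin, which damages lung tissue and is used to model fibrosis, into the trachea. Fibroblasts were isolated on day 21 and the cultures incubated for 72 hours. The labels give the animals as female and 11 weeks old, and do not state the strain, the kind of knockout allele or how many animals went into a culture. No culture was left without bleomycin and none was treated with interferon, so the values are levels in resting cultures of injured lungs. Each culture was measured on 1 one-colour Agilent array, and arrays with the same replicate number, 1 of each genotype, shared 1 of 3 slides.

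Type I interferons bind the receptor made of Ifnar1 and Ifnar2, whose kinases Jak1 and Tyk2 phosphorylate Stat2. Stat2 and Irf9 are parts of the ISGF3 complex, which binds interferon-stimulated response elements in the promoters of its target genes. The induced genes include the RNA sensors of the RIG-I family, antiviral effectors such as the oligoadenylate synthetases and the Ifit proteins, and regulators such as Irf7, which amplifies the response, and Usp18, which restrains it. Fibroblasts both produce and respond to these interferons.

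The response element was looked for as the letters GAAA, any 2 bases and GAAA again, on either strand and with overlapping matches counted, in RefSeq promoter windows of the GRCm38.p6 table that run from 250 bases before to 50 bases after a gene's start. Of the 39 genes 28 had an entry, and 13 of these (46.4%) held the letters, against 3.99% of all 27025 genes in the table. Among the genes that fell in the knockout 2 of 4 with an entry held them, and among tested genes that did not pass 9 of 20 did (45.0%). Isg15 and Oas1a were the genes that fell and held a match, and Ifit3, which did not differ, is set beside them; it was chosen after its values were seen. Capitals mark the matched letters, which overlap in Isg15 and in Oas1a, and each stretch is 100 bases read 5′ to 3′ on the gene's strand.
Isg15, chr4:156200819-156200918, minus strand: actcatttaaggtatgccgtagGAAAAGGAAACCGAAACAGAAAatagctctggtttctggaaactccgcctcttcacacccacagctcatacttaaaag
Oas1a, chr5:120907526-120907625, minus strand: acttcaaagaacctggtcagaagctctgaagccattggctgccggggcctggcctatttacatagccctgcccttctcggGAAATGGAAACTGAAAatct
Ifit3, chr19:34583359-34583458, plus strand: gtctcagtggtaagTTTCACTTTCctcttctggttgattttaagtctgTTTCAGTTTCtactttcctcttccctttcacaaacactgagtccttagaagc
The Isg15 stretch held 3 matches, and the Oas1a and Ifit3 stretches 2 each. In Ifit3 the letters lay on the opposite strand. A match describes the letters in the window and was not tested as a binding site.

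Values are log2 processed signals minus the array's 75th percentile, called scaled log2 signals, so that 0 is the 75th percentile of an array and the levels of different probes are not compared. Tested probes were those well above background on all arrays of the knockout group, the wild-type group or both, and a difference is knockout minus wild type. The share of spots well above background ran from 43.1% to 54.5% over the 6 arrays. Wild-type replicate 2 stood apart, correlating at 0.939 and 0.960 with the others of its group, against 0.984 between those. Knockout replicate 1 correlated at 0.958 and 0.980 with the others of its group, against 0.986 between those. It had the smallest share of spots well above background, 43.1%, and was the knockout array not well above background for Oasl1, Oas2 and Irf7. Over all probes tested 1124 of 24217 passed at an adjusted p under 0.05 in limma (4.64%), 697 higher (2.88%) and 427 lower (1.76%); scaled to probes detected on all arrays the split was 607 to 562, and in the authors' deposited log2 values 548 to 437. Mmp19 itself was well above background on 0 of 3 knockout and 3 of 3 wild-type arrays. With the main processing its signal in knockout cultures was lower by at least 6.31-fold (adjusted p = 0.016 in limma). That bound was 5.33-fold when every spot of a probe had to be well above background. With normexp background correction the Mmp19 difference was -1.40 and did not pass (limma adjusted p = 0.0759). Whether its single probe lies in the deleted part of the gene was not stated.

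The cultures differed in more than the targeted gene. Of 6 mesothelial markers 5 were higher in the knockout, and their summed signal, in units of each array's 75th percentile, was 34.5 to 85.2 in knockout and 2.01 to 9.33 in wild-type cultures. Of 12 fibroblast markers 11 were well above background on all arrays. Their summed signal was 2588 to 2699 in knockout and 1297 to 2451 in wild-type cultures for all 12. Only 2 passed, the collagen genes Col1a1 and Col1a2, both higher in the knockout. Dcn and Vim differed by -0.75 and -0.11 without passing, and the rest had positive differences. The summed signal of 9 epithelial markers was 55.8 to 61.9 in knockout and 40.2 to 49.2 in wild-type cultures, with 0 passing. Krt18 differed by 2.55, and the other tested epithelial markers by -0.39 to -0.02. The endothelial sums, 3.70 to 5.40 against 4.05 to 5.71, overlapped. So did those of T, NK and B cell markers, 4.46 to 6.70 against 3.88 to 5.51. The summed signal of 10 macrophage and monocyte markers, most of it from Itgam, was 48.1 to 110.2 in knockout and 58.7 to 71.4 in wild-type cultures. Of the 10 markers 7 were well above background on some array. Itgam, Csf1r, Cd14 and Marco were so on all 6, and Fcgr1, Mrc1 and Spi1 on 0 of 6. Of 8 dendritic cell markers Siglech was well above background on all 6 arrays, with scaled log2 signals of 7.42 to 8.31, and 5 were so on 0 of 6. The summed dendritic signal, nearly all of it from Siglech, was 171.5 to 317.0 in knockout and 235.3 to 295.9 in wild-type cultures. Against the labelled sex, the Y-linked genes Eif2s3y and Ddx3y were detected on all 6 arrays. Both were lower on every knockout array than on every wild-type array, without passing (limma adjusted p = 0.112 and 0.139). Y-linked Kdm5d was detected on 0 of 6 arrays, and Uty on 0 of 3 knockout and 1 of 3 wild-type arrays. Xist, which is expressed from the inactive X chromosome, was detected on 3 of 3 knockout and 0 of 3 wild-type arrays. The part of these markers in the interferon results was not tested, and a difference in the animals' sex or in the makeup of the cultures cannot be told apart from genotype here. In bulk RNA, fewer cells of a type and less RNA per cell cannot be told apart either.

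Part of the set was lower in knockout fibroblasts and none of it rose. Of 32 tested genes 6 fell and 0 rose at an adjusted p under 0.05 in the limma fit over all probes. The 6 were the ubiquitin-like modifier Isg15, Usp18, which removes Isg15 from proteins, the oligoadenylate synthetase family members Oas1a, Oas2 and Oasl1, and Ifi44. Over all 12472 genes tested 598 passed (4.79%), 1.49% lower and 3.3% higher. At an unadjusted p under 0.05 the set had 15 genes, 14 lower and 1 higher, against 21.8% of all genes in either direction. That share was not split by direction, so the 14 lower genes have no matching share. The median difference of the 32 genes was -0.40, against 0.08 for all genes tested. Every knockout array lay below every wild-type array in 13 of the 32 genes, against 9.79% of all genes, and above in 1, against 21.2%. Oasl1, Oas2, Rsad2 and Irf7 were above background on each wild-type array but not on each knockout array, so they were tested only through the group where they were high, and the counts and the median over the 32 genes include them. Among the 28 genes well above background on all 6 arrays 4 fell, the calls of Oasl1 and Oas2 being absent, with a median difference of -0.27, and 0.902% of all genes were lower under that filter.

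The count of calls changed with the arrays used. Without wild-type replicate 3 none of the 32 genes passed in limma (10 lower and 1 higher at an unadjusted p under 0.05, smallest adjusted p 0.0509), with 0.144% of all genes lower. The 6 genes then had a median difference of -1.99, with Usp18 at -2.61, Oasl1 at -4.26 and Oas1a at -2.03. Without wild-type replicate 2 there were 10 lower genes, with 3.82% of all genes lower. Without wild-type replicate 1 there were 2, among 0.746% of all genes, and without knockout replicates 1, 2 and 3 there were 3, 2 and 2, among 0.682%, 0.858% and 0.176%. With slide as a block 3 remained lower, Usp18, Oasl1 and Ifi44, against 0.611% lower of all genes and 1.75% in either direction. Of the alternative fits that tested them, Usp18 passed in 14 of 15 and Oasl1 in 11 of 14. Ifi44 passed in 9 of 15, Isg15 in 8 of 15, Oas1a in 7 of 15 and Oas2 in 6 of 14.

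**Figure D1:**
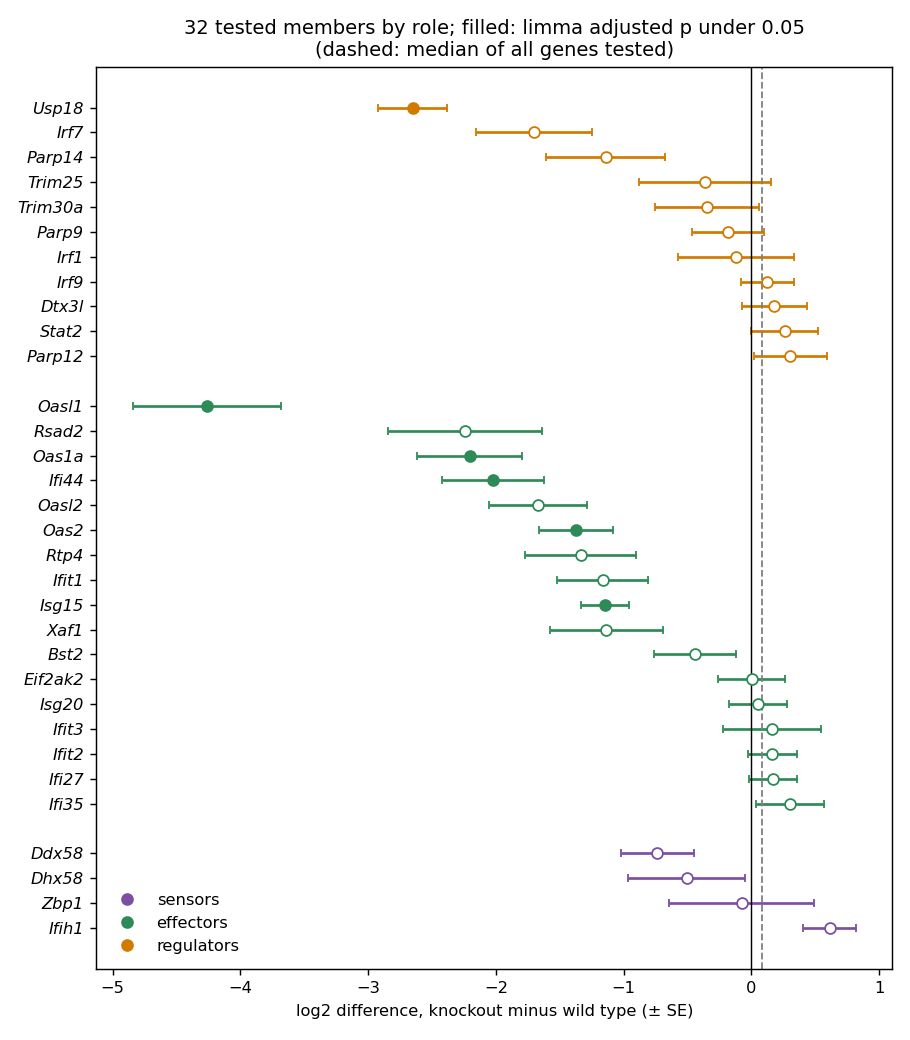
Log2 difference, knockout minus wild type, with the standard error of the limma fit (n = 3 arrays per group) for the 32 tested interferon-induced genes, by role; filled points passed at an adjusted p under 0.05 and the dashed line is the median of all genes tested, 0.08. The 6 filled points are 5 effectors and 1 regulator, between -4.26 and -1.15.

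None of the 4 sensors passed. They are the RNA helicases Ifih1 (MDA5), Ddx58 (RIG-I) and Dhx58 (LGP2), and Zbp1, a sensor of left-handed nucleic acids. Ddx58 had scaled log2 signals of 1.79, 2.77 and 2.48 on the knockout arrays and 3.19, 3.00 and 3.05 on the wild-type arrays. All 3 knockout arrays were lower, by 0.74 ± 0.29 on the log2 scale (SE, n = 3 per group; limma adjusted p = 0.202). Ifih1 ran the other way, at 0.30, 0.69 and 0.39 in knockout and -0.30, -0.16 and 0.00 in wild-type cultures. Its groups did not overlap, and the difference of 0.61 ± 0.21 did not pass (limma adjusted p = 0.158). Dhx58 was at -1.01, -1.02 and -1.39 in knockout and 0.04, -1.70 and -0.24 in wild-type cultures, where replicate 2 lay below every knockout array. Zbp1 spread as widely within a group as between them, from 0.31 to 2.05 in knockout and from 0.41 to 2.07 in wild-type cultures.

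Among the effectors 5 of 17 tested genes fell, with a median difference of -1.15, against 1.49% lower of all genes tested. Oasl1, Oas2 and Rsad2 were tested only through the wild-type group, where they were high. The count and the median of the effectors include them. Oasl1, an oligoadenylate synthetase-like protein without synthetase activity that limits translation of Irf7, had scaled log2 signals of -4.73, -2.39 and -3.00 in knockout cultures and 0.56, 1.22 and 0.90 in wild-type cultures. The groups lay far apart, although only 2 of the 3 knockout arrays were well above background. The difference was -4.26 ± 0.58 (SE, n = 3 per group; limma adjusted p = 0.0163), in which the knockout array not above background enters at its measured value, so the size is uncertain. It was -2.54 with normexp background correction and -3.59 without knockout replicate 1. Oasl1 passed in 11 of the 14 alternative fits that tested it, and the filter on probes well above background on all arrays removed it.

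The oligoadenylate synthetases make the second messenger that activates RNase L. Oas1a was at -1.66, -2.00 and -1.90 in knockout and 0.94, -0.59 and 0.71 in wild-type cultures. All knockout arrays were lower, and wild-type replicate 2 was the nearest to them. The difference was -2.21 ± 0.41 (limma adjusted p = 0.0361; 0.0631 with slide as a block). With normexp it was -1.41 and did not pass (limma adjusted p = 0.0574). A dimmer Oas1a probe differed by -1.73 ± 0.53 and did not pass, and since the Oas1 genes are close paralogs, which of them the probes read is uncertain. Oas2 was at -3.23, -3.36 and -3.26 in knockout and -1.48, -2.49 and -1.75 in wild-type cultures, with 2 of 3 knockout arrays well above background. Its difference of -1.37 ± 0.29 was just past the threshold (limma adjusted p = 0.0493; 0.0861 with slide as a block and, at -0.52, 0.288 with normexp). Oasl2, which lies next to Oasl1 in the genome, differed by -1.67 ± 0.38 with no overlap of the groups and did not pass (limma adjusted p = 0.0613), whereas it passed with scaling to detected probes and in the authors' deposited values. Oas3 and Oas1g were well above background on 0 of 6 arrays and were not tested.

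Isg15, which is conjugated to other proteins in infected cells, was at 2.11, 2.07 and 1.96 in knockout and 3.31, 3.03 and 3.23 in wild-type cultures. The arrays within each group lay close together and the groups lay apart. The difference was -1.15 ± 0.19, a 2.21-fold lower signal (limma adjusted p = 0.026; 0.0777 with slide as a block), and a second, dimmer probe differed by -0.82 ± 0.22 without passing. Ifi44, a cytoplasmic protein of the antiviral response, was at -2.46, -3.69 and -3.03 in knockout and -0.59, -1.63 and -0.90 in wild-type cultures. Its groups did not overlap, with a difference of -2.02 ± 0.40 (limma adjusted p = 0.0412; 0.0355 with slide as a block, 0.114 with normexp).

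**Figure D2:**
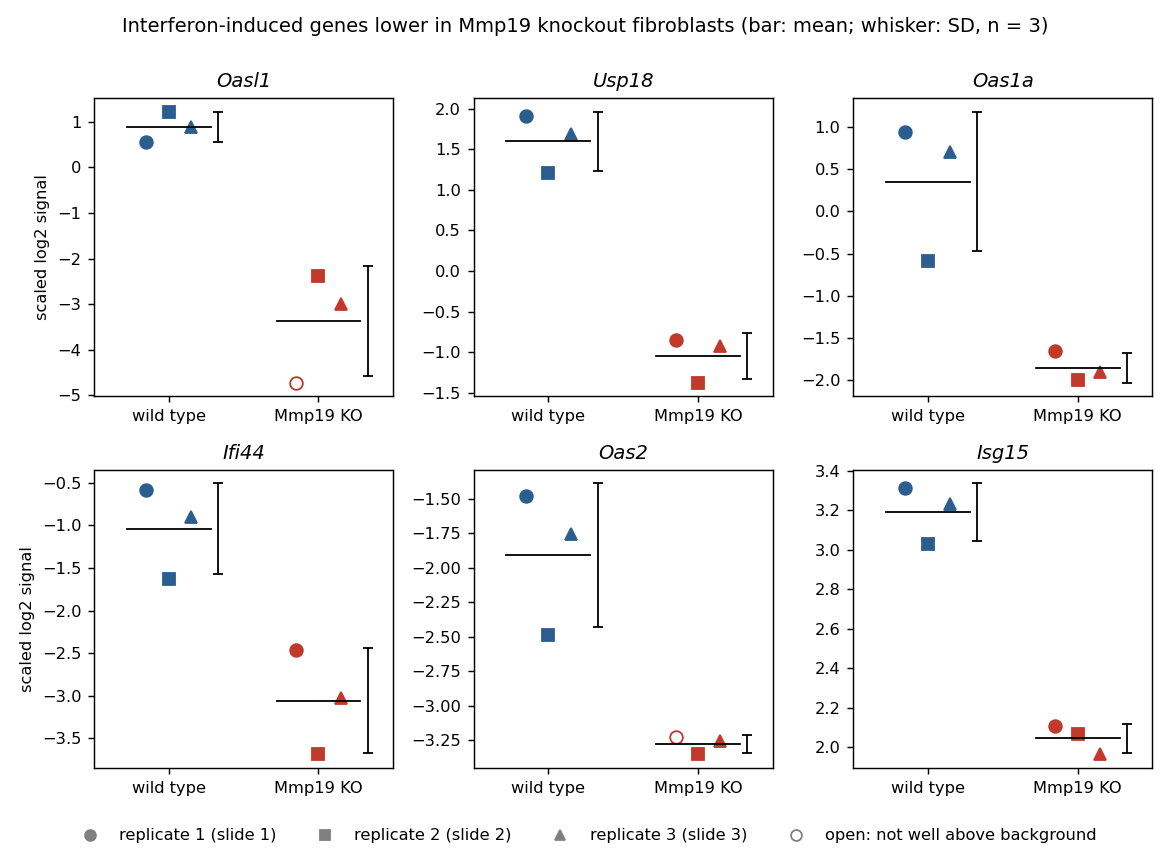
Scaled log2 signal of the 6 interferon-induced genes that fell, 1 point per array (shape gives replicate and slide, open symbols were not well above background), with the group mean (bar) and SD (whisker, n = 3 per group). In each gene all knockout points lie below all wild-type points, and in 5 of them, Oasl1 being the other, wild-type replicate 2 is the lowest of its group.

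Rsad2, or viperin, which makes an antiviral nucleotide, did not pass. It was at -5.27, -6.07 and -3.59 in knockout cultures, only 1 of them well above background, and -3.05, -2.74 and -2.40 in wild-type cultures. The groups did not overlap, and the difference was -2.24 ± 0.60 (limma adjusted p = 0.0898). With normexp the difference was -0.47 (limma adjusted p = 0.425), and without knockout replicate 3 it was -2.94 and passed, at 0.0486. Its genomic neighbour Cmpk2, a nucleotide kinase induced with it, was well above background on 1 of 6 arrays and was not tested. Herc6, the main ligase that attaches Isg15 in mice, was well above background on 2 arrays of each group and was not tested either. Mx1, Mx2 and Oas1b had no probe that could be named.

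The Ifit family, which binds viral RNA, was not uniform. Ifit1 was at 0.46, -0.19 and -0.10 in knockout and 0.79, 1.92 and 0.95 in wild-type cultures, with no overlap and a difference of -1.16 ± 0.36 that did not pass (limma adjusted p = 0.125). Ifit2 and Ifit3, which are neighbours in the genome, differed by 0.16 ± 0.19 and 0.16 ± 0.38, with overlapping groups. Ifit3, whose promoter is printed above, ran from 0.98 to 2.22 in knockout and from 0.97 to 1.89 in wild-type cultures. Rtp4 (-1.34 ± 0.44) and the apoptosis-linked Xaf1 (-1.13 ± 0.45) were below on all knockout arrays without passing. The other effectors, the kinase Eif2ak2 (PKR), the exonuclease Isg20, the virus-tethering Bst2, Ifi35 and Ifi27, had overlapping groups and differences from -0.44 to 0.30 on their brightest probes. A dimmer Isg20 probe had every knockout array above every wild-type array, a difference of 0.66 ± 0.23 that did not pass (limma adjusted p = 0.169).

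Of the 11 regulators, all tested, 1 fell, against 1.49% lower of all genes tested. Irf7 was among the 11 only through the wild-type group, where it was high. Usp18, which removes Isg15 from proteins and blocks signalling at the receptor, had scaled log2 signals of -0.85, -1.38 and -0.93 in knockout and 1.91, 1.20 and 1.69 in wild-type cultures. The groups were separated by more than the spread within either. The difference was -2.65 ± 0.27, a 6.28-fold lower signal (SE, n = 3 per group; limma adjusted p = 0.00641; 0.0275 with slide as a block). Usp18 passed in 14 of 15 alternative fits, and without wild-type replicate 3 it missed the threshold at 0.0509. Within the 3 slides its difference was -2.76, -2.58 and -2.61.

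Irf7, the transcription factor that drives late interferon production, was at -4.54, -3.30 and -3.36 in knockout and -1.71, -2.77 and -1.61 in wild-type cultures. All knockout arrays were lower and 2 of 3 were well above background, and the difference of -1.70 ± 0.45 did not pass (limma adjusted p = 0.0882), except without wild-type replicate 2, at 0.0399. With normexp it was -0.64. Parp14, an ADP-ribosyltransferase, was at -0.64, -0.17 and -0.91 in knockout and 1.35, -0.42 and 0.77 in wild-type cultures. Wild-type replicate 2 lay within the knockout range, and the difference of -1.14 ± 0.46 did not pass (limma adjusted p = 0.222); without that array it did, at 0.0353. Its neighbours Dtx3l and Parp9, which form a ubiquitin ligase complex, differed by 0.18 ± 0.25 and -0.18 ± 0.28.

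Stat2 and Irf9 did not differ beyond the spread between arrays. Stat2 was at 2.04, 2.66 and 2.10 in knockout and 2.20, 1.68 and 2.13 in wild-type cultures, a difference of 0.26 ± 0.26 (limma adjusted p = 0.612). Irf9 was at 3.12, 2.98 and 2.87 against 3.00, 2.61 and 2.99, a difference of 0.13 ± 0.21 (limma adjusted p = 0.774). In both genes the groups overlapped. Irf1, an activator of early response genes, was at 2.74, 3.51 and 3.16 against 3.89, 2.26 and 3.63, and its wild-type spread covered the knockout range. The ubiquitin ligase Trim25, which activates RIG-I, Trim30a and Parp12 also had overlapping groups, with differences of -0.36, -0.35 and 0.31.

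Slides differed in how the set moved. Within slides 1, 2 and 3 the median difference of the 32 genes was -1.17, 0.15 and -0.65, against -0.01, 0.33 and -0.03 for all genes tested. The knockout array was lower within all 3 slides for 13 genes, against 16.3% of all genes, and higher within all 3 for 3 genes, against 30.6%. The 13 lower genes include the 6 that fell. They are the genes in which every knockout array lay below every wild-type array, which fixes their sign within each slide. The regulators as a class had a median of -1.14 on slide 1 and 0.79 on slide 2, while the effectors were at -1.20 and -0.60. Wild-type replicate 2, on slide 2, was the lowest wild-type array for 26 of the 32 genes (81.2%), against 54.6% of all genes, a count added after the data were seen.

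**Figure D3:**
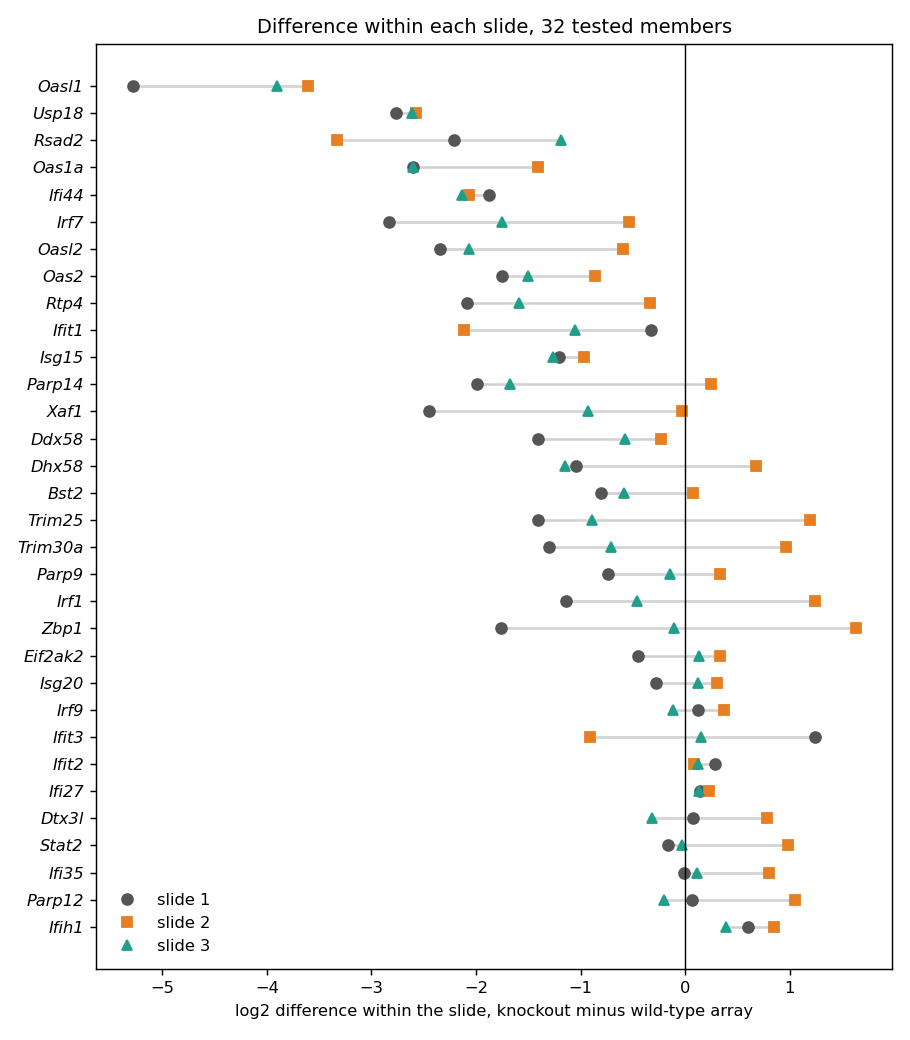
Log2 difference within each slide, knockout minus wild-type array, for the 32 tested genes, ordered by their mean difference, 1 point per slide. The slide 2 points of Trim25, Zbp1 and Irf1 lie above 0 while those of slide 1 lie below, and Usp18, Ifi44 and Isg15 keep their 3 points close together.

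Outside the set, no gene of the interferon pathway list passed. The list held 71 other genes, namely ligands, receptors, kinases and transcription factors, sensing and adaptor genes, inhibitors, Isg15 conjugation enzymes and further effectors. Of these 54 were tested and 0 passed in limma, against 4.79% of all genes. At an unadjusted p under 0.05 there were 4 lower and 6 higher, against 21.8% of all genes in either direction. The median difference of the 54 genes was 0.00. Without wild-type replicate 2, 6 were lower and 1 higher, with 3.82% of all genes lower. Without knockout replicate 2, 1 was lower, with 0.858% of all genes lower. The receptor chain Ifnar1 was at 0.19, 1.13 and 1.08 in knockout and 2.15, 1.32 and 1.79 in wild-type cultures. Its groups did not overlap, and the difference of -0.95 ± 0.34 did not pass (limma adjusted p = 0.176); averaged over all its tested probes it was 0.037. Ifnar2 differed by 0.57 ± 0.44, Jak1 by 0.56 ± 0.35 and Tyk2 by -0.36 ± 0.40, each with overlapping groups. Of 15 ligand genes 7 were tested and 0 passed in limma (also 0 at an unadjusted p under 0.05), with a median difference of -0.09 and overlapping groups in each. Ifna1, Ifna2, Ifna5, Ifna11, Ifna12 and Ifnl3 were well above background on all 6 arrays, and Ifna11 differed by 1.62 ± 0.83 and Ifna12 by -1.14 ± 0.83. The Ifna genes are close paralogs, so which of them a probe reads is uncertain. Ifnb1, the interferon that fibroblasts make first, was well above background on 0 of 6 arrays. The ligands were named after their values were seen.

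**Figure D4:**
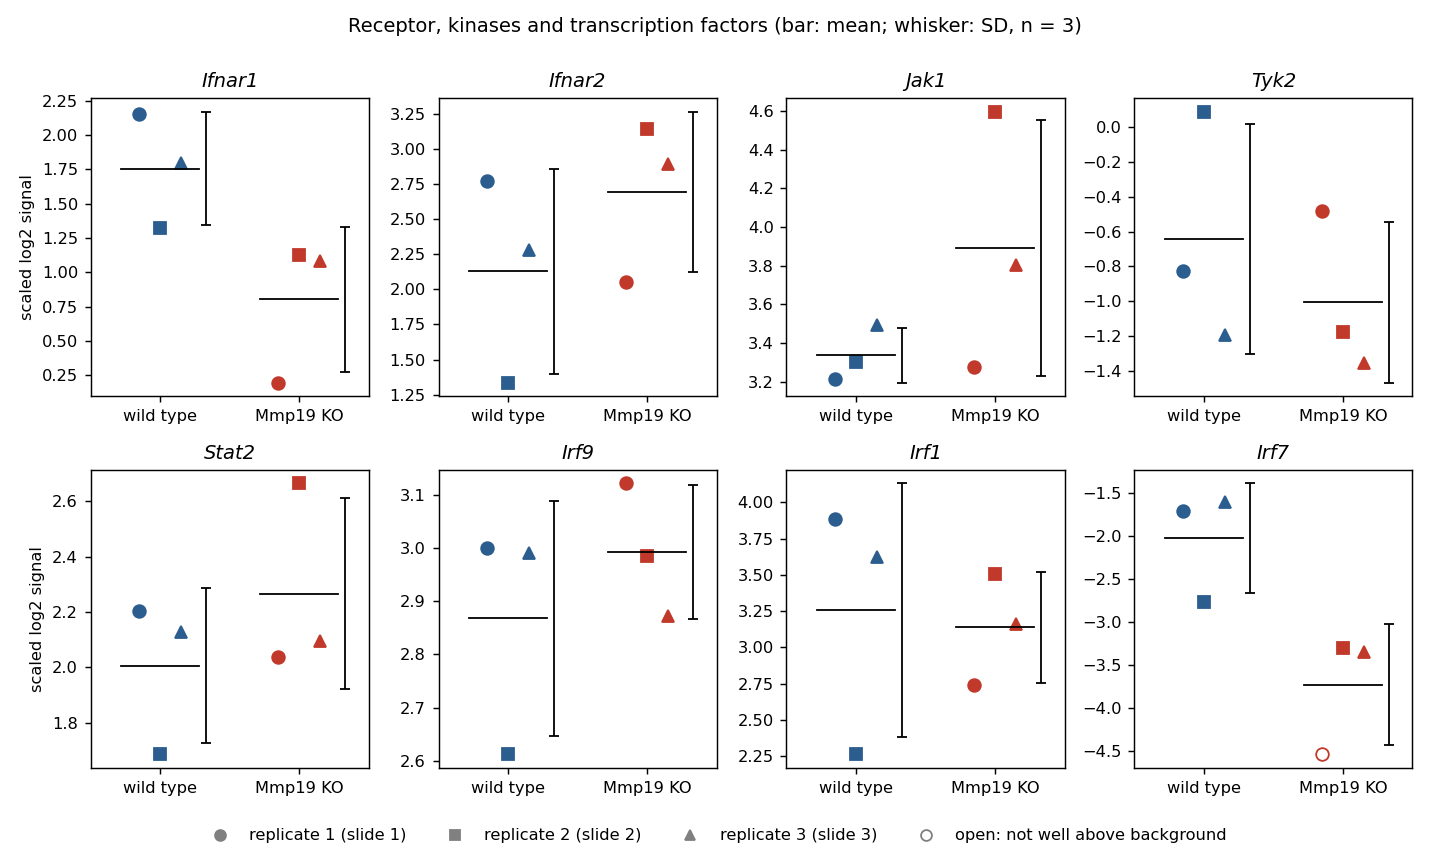
Scaled log2 signal of the receptor chains, their kinases and 4 transcription factors, 1 point per array (shape gives replicate and slide, open symbols were not well above background), with the group mean (bar) and SD (whisker, n = 3 per group). Knockout points lie below all wild-type points in Ifnar1 and Irf7, and the groups overlap in the other 6 genes.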

How the data were processed

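Total RNA of 6 fibroblast cultures, labelled with Cy3 from 0.5 µg per the labels' protocols, was read on one-colour arrays. The deposited intensity tables hold background-subtracted processed signals from Agilent Feature Extraction 10.7.3.1, per the file headers (design build mm9); the submitters' processing notes name version 9.1. The authors also deposited log2 values for 35844 probes, whose normalization and centring are not given in the sources used here (column medians 5.51 to 5.76), used as an alternative.

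Control and outlier spots were removed and spots averaged to 55681 probes, of which 26413 (47.4%) were named by RefSeq accession (GRCm38.p6). Log2 processed signals minus each array's 75th percentile were fitted by lmFit and eBayes (limma 3.58.1, R 4.3.3). The two-sided p-values of 24217 tested probes were adjusted by Benjamini-Hochberg, with a threshold of 0.05. A gene was read by its brightest tested probe. The fit was tested on simulated data. A single value tested by exact permutation of 3 against 3 arrays cannot go below p = 0.1. The p-values measure the spread between these cultures.

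A probe with several spots counted as well above background when a share of at least 0.5 of them was flagged. A rule that asks for every spot was tried after results were seen, because the bound for Mmp19 differed from that of an earlier analysis of these data. It gave 24203 probes tested, 1113 passing, the same 6 members lower and a bound of 5.33-fold in place of 6.31-fold. The first rule was kept because it had been written first, although earlier results of these data were already known.

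Slide and replicate number coincide. Deviations from group means correlated at 0.096, -0.02 and 0.210 within slides and at -0.287 to 0.197 between arrays of different slides. With 3 arrays per group these values cannot show whether a slide has a shared effect. Arrays were not treated as pairs because the series text states no block, and slide is given as a block in an alternative fit. The members, roles and pathway list were chosen with earlier results of these data known. Named are every member past the threshold, the 3 largest differences per role, Stat2, Irf9, Irf1 and Irf7, pathway genes past the threshold, Ifnar1, Ifnar2, Jak1, Tyk2 and Mmp19; other members have their differences or status. One further gene of that rule is not reported here. Alternatives were normexp (offset 50, on median signals), quantile normalization, other scaling, filters and probe rules, the authors' values and leaving out each array.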

Additional observations from a re-analysis of the deposited data

How the results depend on the processing

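With slide as a block (the replicate block) 374 of 24149 probes and 3 members passed, and with normexp 633 of 24217 probes and 3 members. With no filter on dim probes it was 113 of 55681 probes and 1 member. With probes well above background on all arrays it was 650 of 20962 probes and 4 members. Leaving out 1 array gave 107 to 1716 probes of 24214 to 24217 tested. It gave 0 to 10 members, a member median of -0.78 to -0.17 and 0 to 7 pathway genes. The members' median was -1.17 and -0.65 within slides 1 and 3, and 0.15, of opposite sign, within slide 2. Under quantile normalization 6 members and 1084 of 24217 probes passed, 416 of the probes lower. Under scaling to detected probes 7 members and 1169 of 24217 probes passed, 562 of the probes lower. In the authors' deposited values 7 members and 985 of 19399 probes passed, 437 of the probes lower. Oasl2 was the member added in the last 2, and no member was higher in any alternative run. The median of all genes moved from 0.08 to -0.03 with scaling to detected probes and to -0.05 in the authors' values, and the members' median to -0.52 in each. The member count was also 6 with the mean of a gene's tested probes and with every spot required to be above background, the last added after the data were seen. Genes not past the threshold changed sign in some fits: Irf9 to -0.013 in the authors' values and -0.0030 without wild-type replicate 2, Irf1 to 0.08, 0.19 and 0.06 without knockout replicate 1 and wild-type replicates 1 and 3 (range without 1 array -0.62 to 0.19), Ifnar1 to 0.037 over all its probes, and Tyk2 to 0.0043 without wild-type replicate 2 (range -0.64 to 0.0043). The cause of these changes was not tested. Mmp19 changed by -1.40 with normexp and did not pass. The number of arrays and the dim signal of Oasl1, Oas2, Rsad2 and Irf7 in knockout cultures limit what can be read.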
